A study of Mus musculus with 17 samples.

Results

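The 9 genes here encode ephrins, Eph receptors and connexins, of which Efnb2, Ephb4, Gja5 and Gja4 are used to tell arterial from venous endothelium. The 9 genes are the ligands Efnb2, Efnb1 and Efna1, the receptors Ephb4 and Ephb2, and the gap junction proteins Gja5, Gja4, Gja1 and Gjc1. They were chosen by name, not by a threshold on their values, but with earlier results of these data known. Of the 9 genes, 8 were read by a probe set that carries a single gene symbol, with 1 probe set each, among 19937 genes measured in this way. Ephb2 was not analysed here.

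Ephrins are ligands fixed to the cell surface, and binding to an Eph receptor on a neighbouring cell starts a signal in both cells. In the embryonic vasculature Efnb2 marks arteries and its receptor Ephb4 marks veins, and loss of either gene stops vascular remodelling in the mouse embryo. Connexins assemble into channels that join the cytoplasm of adjacent cells, and Gja5 and Gja4 are typical of arterial endothelium, where Efnb2, Gja5 and Gja4 lie downstream of Notch signalling. Haematopoietic stem cells arise from endothelial cells of the aorta in the aorta-gonad-mesonephros (AGM) region. The study reports that these stem cells and arterial endothelium come from different precursors.

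The study asked how the Notch ligands Jag1 and Dll4 act on AGM cells at the time when haematopoietic clusters, which carry the receptor Kit, emerge from endothelium. Pools of AGM regions of E11.5 mouse embryos were digested and CD31 positive cells lacking CD45 and Ter119 were sorted. Kit− and Kit+ cells were either taken fresh (3 arrays each), or sorted after the CD31 positive cells had been kept for 2 h with OP9, stromal cells of mouse bone marrow engineered to overexpress a ligand. The cultured groups were Kit−J (2 arrays) and Kit+J (3 arrays) from OP9-Jag1, and Kit−D and Kit+D (3 arrays each) from OP9-Dll4, 17 arrays in all. All 4 cultured groups shared a medium with serum, IL-3, SCF, IL-6, IGF-1, FGF, VEGF and erythropoietin, which the fresh cells did not see, and none of the 6 groups was kept on OP9 without an added ligand. Total RNA came from independent sorts, a few nanograms of each were amplified and hybridised to Affymetrix Mouse Gene 1.0 ST arrays, and a further Kit−J sample had been excluded by the authors for technical reasons. The labels give each array as a biological replicate, and the genotype of the embryos behind each array is not stated. The fresh arrays belong to an earlier series, so in any comparison of cultured with fresh cells the culture cannot be told apart from the set of arrays. All values below are log2 signals after RMA.

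Some labels conflict, and the RNA of the sorting markers did not follow the labels on every array. The sorts used surface protein, whereas the arrays read RNA. In the sample records, the description of both Kit−J arrays and of Kit−D replicate 3 names a Kit positive source, and that of Kit+D replicate 3 a Kit negative one, while titles and source names give the groups used here. Kit itself read 8.13 to 8.29 on the Kit− arrays, 9.44 to 9.55 on Kit+, 7.05 to 8.02 on Kit−D, 9.02 to 9.93 on Kit+J and 8.51 to 8.99 on Kit+D. The 2 arrays labelled Kit−J read 9.08 and 8.50 for Kit, above every Kit− and Kit−D array, and Kit was higher there than in Kit−D, by 1.20 ± 0.29 (SE, adjusted p = 0.0202, limma). Against Kit− the difference in Kit was 0.58 ± 0.29 and did not pass (adjusted p = 0.399). By quantitative RT-PCR the study itself reports Kit expression as raised in Kit− cells after exposure to Jag1. Both arrays of that group carry the conflict, so no value without them exists, and they are called the arrays labelled Kit−J. The endothelial genes Kdr and Cdh5 were high on the Kit− and Kit−D arrays, where Kdr read 9.62 to 10.26, and lower on all others, where Kdr read at most 6.89 and Cdh5 at most 8.58, whereas Pecam1, which encodes the CD31 used for sorting, lay between 7.60 and 10.25. Ptprc, which encodes the CD45 that the sort removes, was at 7.38 or more on 13 of the 17 arrays and between 4.16 and 5.54 on replicates 2 and 3 of Kit−D and Kit+D.

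Because Efnb2, Gja5, Gja4 and Gja1 had the clearest group differences, the 250 bases before the start site of each are shown (RefSeq, build GRCm38.p6, in gene orientation, 5′ to 3′). These windows lie at chr8:8661243-8661492 (minus strand) for Efnb2, chr3:97032152-97032401 (plus strand) for Gja5, chr4:127314040-127314289 (minus strand) for Gja4 and chr10:56377050-56377299 (plus strand) for Gja1. Capitals mark matches on either strand to TGGGAA, the core bound by the Notch effector RBPJ, ACAAT, a core bound by SOX factors, or CACGTG, an E-box bound by HES and HEY repressors.
Efnb2: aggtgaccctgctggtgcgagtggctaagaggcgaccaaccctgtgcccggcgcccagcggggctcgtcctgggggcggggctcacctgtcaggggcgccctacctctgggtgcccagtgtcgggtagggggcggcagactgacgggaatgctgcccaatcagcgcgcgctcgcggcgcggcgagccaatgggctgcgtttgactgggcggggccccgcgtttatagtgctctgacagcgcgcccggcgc
Gja5: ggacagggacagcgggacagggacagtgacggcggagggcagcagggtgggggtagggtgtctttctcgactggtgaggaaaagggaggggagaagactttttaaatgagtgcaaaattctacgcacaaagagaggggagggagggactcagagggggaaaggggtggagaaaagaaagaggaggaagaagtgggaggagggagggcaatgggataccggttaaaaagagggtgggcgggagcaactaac
Gja4: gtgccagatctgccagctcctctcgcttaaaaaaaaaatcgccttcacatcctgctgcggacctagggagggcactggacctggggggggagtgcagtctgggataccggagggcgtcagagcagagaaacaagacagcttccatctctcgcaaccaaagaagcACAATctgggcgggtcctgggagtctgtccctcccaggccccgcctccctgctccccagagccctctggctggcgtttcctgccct
Gja1: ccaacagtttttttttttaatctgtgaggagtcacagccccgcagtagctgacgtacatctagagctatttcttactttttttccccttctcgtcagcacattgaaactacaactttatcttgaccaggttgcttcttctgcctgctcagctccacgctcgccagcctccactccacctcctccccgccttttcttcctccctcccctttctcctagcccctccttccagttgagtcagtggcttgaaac
Of these promoters, that of Gja4 held ACAAT, beginning 86 bases before the start, and no match overlapped another. Among the 32851 promoter windows of this length in the table, 21.6% held TGGGAA, 27.7% held ACAAT and 6.02% held CACGTG. The windows differed in base composition, with G and C making up 72% of the Efnb2 window, 61.2% of that of Gja4, 56.4% of that of Gja5 and 50% of that of Gja1. Of the other measured genes, Efnb1 held TGGGAA at 197 and 168 bases before its start, and the single Ephb4 window and both Efna1 windows held none of the 3 motifs.

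In fresh AGM cells the arterial ligand and 3 of the 4 connexins were far lower in Kit+ than in Kit− cells. Gja5 was 16.1-fold lower, Efnb2 5.44-fold, Gja1 4.59-fold and Gja4 4.15-fold, so that 4 of the 8 measured genes were lower at an adjusted p under 0.05, against 2.67% of all genes. On the arrays labelled Kit−J, 5 of 8 were lower than in fresh Kit− cells, Efnb2, Efna1, Gja1, Gja4 and Gja5, against 1.89% of all genes. In Kit−D cells 0 of 8 differed from fresh Kit− cells (limma), against 0.171% of all genes in either direction, with 2 of the 8 and 2238 of all 19937 genes at an unadjusted p under 0.05. Between cultured and fresh Kit+ cells no gene passed: 0 of 8 differed between Kit+J and Kit+ (limma), against 0.0201% of all genes, and 0 of 8 between Kit+D and Kit+, against 1.42%. At an unadjusted p under 0.05 the first comparison held 0 of the 8 and 1330 of all genes, and the second 2 of the 8, Efnb2 and Gja1, and 3386 of all genes. The values behind each statement follow gene by gene. In these mixed populations, fewer cells of a type and less RNA per cell cannot be told apart.

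**Figure D1:**
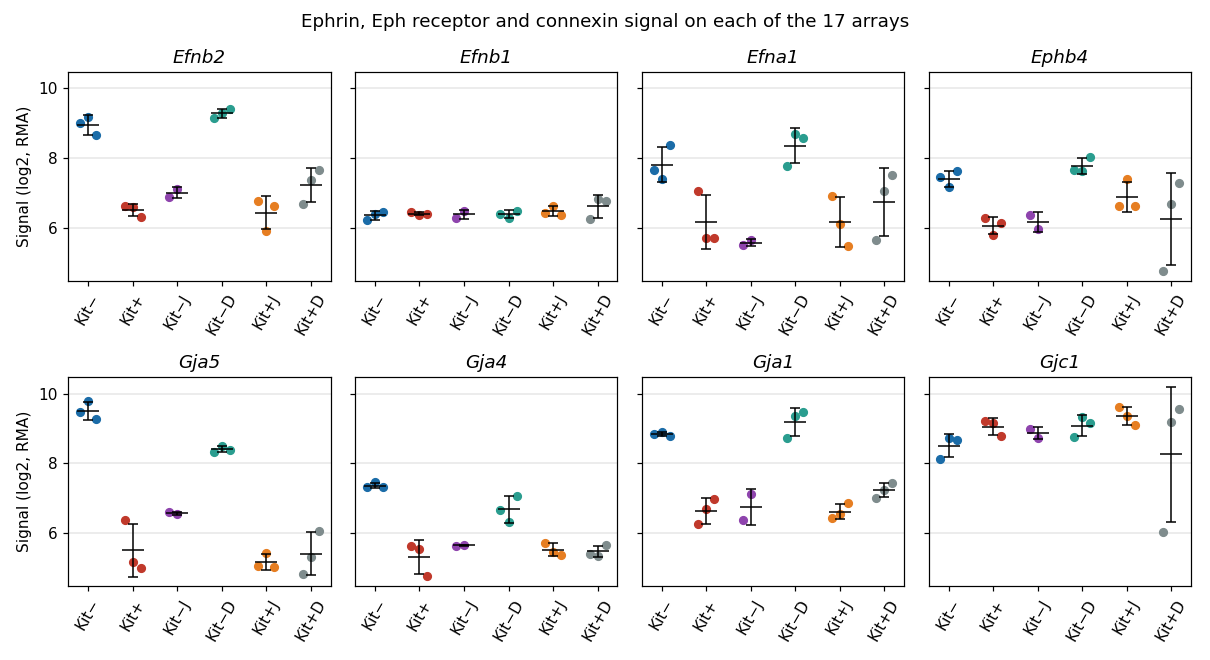
Each point is the log2 signal (RMA) of a gene on 1 array, coloured by group, with the group mean as a black line and its SD as a bar (n = 3, or 2 in Kit−J). Efnb2, Gja5, Gja4 and Gja1 are high in Kit− and Kit−D and low in the other groups, whereas Efnb1 spans 6.22 to 6.82 over all arrays, and on Kit+D replicate 1 Gjc1 and Ephb4 fall to 6.02 and 4.76.

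Efnb2, the B-class ephrin of arterial endothelium, separated the groups into a high and a low set. In fresh cells it read 9.02, 9.19 and 8.65 in Kit− and 6.63, 6.60 and 6.30 in Kit+. On OP9-Jag1 it read 6.89 and 7.12 on the arrays labelled Kit−J and 6.77, 5.91 and 6.63 in Kit+J. On OP9-Dll4 Kit−D cells read 9.15, 9.30 and 9.41, and Kit+D cells 6.69, 7.36 and 7.65. Every Kit− and Kit−D array was above every other array, Kit−D overlapped Kit−, Kit+D overlapped Kit−J, and Kit+ overlapped Kit+J, while Kit−J lay above both Kit+ and Kit+J without overlap. The difference of Kit+ from Kit− was −2.44 ± 0.25 on the log2 scale (SE here and below, adjusted p = 3.94e-05), and Kit−J was 3.86-fold below Kit− (adjusted p = 0.00175). Kit−J was also 4.87-fold below Kit−D (adjusted p = 0.000192), and Kit+D was 4.16-fold below Kit−D (adjusted p = 0.000133). These 4 differences kept their call in each alternative run. In Kit+D the level was 0.72 ± 0.25 above Kit+ without passing the test (adjusted p = 0.161), and the arrays of both groups did not overlap.

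Efna1, an A-class ephrin induced in endothelium by inflammatory signals, followed a similar order with a wider spread. It read 7.67, 7.39 and 8.37 in Kit− and 7.05, 5.70 and 5.72 in Kit+. The arrays labelled Kit−J read 5.49 and 5.64, and those of Kit+J 6.90, 6.12 and 5.47. In Kit−D it read 7.78, 8.71 and 8.57, and in Kit+D 5.64, 7.04 and 7.52. Kit−J had the lowest mean of the 6 groups, below all arrays of Kit−, Kit−D and Kit+, and it overlapped Kit+J and Kit+D, while Kit+D overlapped Kit−. Kit−J fell 6.88-fold below Kit−D (adjusted p = 0.00666), a call lost without Kit−J replicate 1 (adjusted p = 0.0744). The fall of 4.74-fold from Kit− to Kit−J was at the threshold (adjusted p = 0.0499) and lost its call in 16 of 30 alternatives, over all of which its adjusted p ran from 0.0158 to 0.31. In Kit+D it was 3.06-fold lower than in Kit−D (adjusted p = 0.0437), a call lost in 18 of 31 alternatives. The difference of −1.66 ± 0.49 between Kit+ and Kit− did not pass the test (adjusted p = 0.097).

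Efnb1, an X-linked B-class ephrin expressed by arterial and venous endothelium, passed the test in none of the comparisons. Readings were 6.22, 6.40 and 6.45 in Kit−, 6.45, 6.37 and 6.40 in Kit+, and 6.29 and 6.47 on the arrays labelled Kit−J. Kit−D gave 6.40, 6.28 and 6.49, Kit+J 6.41, 6.63 and 6.37, and Kit+D 6.24, 6.82 and 6.77. Each group overlapped its neighbour in the order of means. The 95% interval of the difference from Kit− was −0.28 to 0.39 for Kit+, −0.29 to 0.37 for Kit−D and −0.34 to 0.40 for the arrays labelled Kit−J.

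The venous receptor Ephb4, to which Efnb2 binds, passed the test in 1 of these comparisons, that of Kit+D with Kit−D. In fresh cells it read 7.45, 7.16 and 7.62 in Kit− and 6.28, 5.78 and 6.13 in Kit+. On OP9-Jag1 it read 6.36 and 5.96 on the arrays labelled Kit−J and 6.63, 7.39 and 6.62 in Kit+J, and on OP9-Dll4 7.65, 7.62 and 8.04 in Kit−D, with 4.76, 6.69 and 7.29 in Kit+D. Kit−D lay just above Kit− without overlap, Kit+J and Kit− overlapped, and the widely spread Kit+D arrays overlapped every group except Kit−D. Kit+D was 2.87-fold lower than Kit−D (adjusted p = 0.0386), a call lost in 12 of 31 alternatives, over all of which its adjusted p ran from 0.00618 to 0.183. Among these, without Kit+D replicate 1, where Ephb4 was lowest, the difference was −0.78 and not called. The differences of −1.35 ± 0.45 for Kit+ against Kit− (adjusted p = 0.154), −1.25 ± 0.51 for Kit−J against Kit− (adjusted p = 0.286) and −1.61 ± 0.51 for Kit−J against Kit−D (adjusted p = 0.0594) did not pass. Without Kit+D replicate 1 in the common fit, these 3 differences passed with adjusted p of 0.0036, 0.0204 and 0.00164.

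Gja5, the connexin of arterial endothelium and of the cardiac conduction system, had the largest differences of the 8 genes in fresh cells. Its signal was 9.47, 9.79 and 9.28 in Kit− and 6.37, 5.16 and 4.98 in Kit+. On OP9-Jag1 it was 6.59 and 6.53 on the arrays labelled Kit−J and 5.05, 5.44 and 5.03 in Kit+J. On OP9-Dll4 it was 8.33, 8.50 and 8.38 for Kit−D, and 4.83, 5.32 and 6.07 for Kit+D. The order was Kit−, Kit−D, Kit−J, then the 3 Kit+ groups, with no overlap between any of the first 3 or between Kit−J and the Kit+ groups, which overlapped each other. Gja5 fell by 4.01 ± 0.33 in Kit+ against Kit− (adjusted p = 4.96e-06), was 7.73-fold lower in Kit−J than in Kit− (adjusted p = 0.000563) and was 7.98-fold lower in Kit+D than in Kit−D (adjusted p = 5.37e-05). Kit−J was 3.59-fold below Kit−D (adjusted p = 0.00685), a call lost without Kit−J replicate 1 (adjusted p = 0.0613). Kit−D lay 1.11 ± 0.33 below Kit− and did not pass (adjusted p = 0.205), though it did when only those groups were fitted (adjusted p = 0.0477) and with array weights (adjusted p = 0.0329). In the 3 Kit+ groups 5 of the 9 arrays read below 5.29, the median of all values, so the size of these folds rests on dim signals.

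Gja4, a second arterial connexin that joins with Gja5 in endothelial gap junctions, ran in the same order at the top. Kit− arrays read 7.31, 7.45 and 7.32 and Kit+ arrays 5.62, 5.55 and 4.75. The arrays labelled Kit−J read 5.63 and 5.66, and those of Kit+J 5.72, 5.45 and 5.37. On OP9-Dll4 the readings were 6.65, 6.31 and 7.06 (Kit−D), and 5.41, 5.35 and 5.65 (Kit+D). Kit− was above Kit−D, and Kit−D above all other groups, without overlap, and the 4 remaining groups overlapped in sequence. Against Kit−, Gja4 differed by −2.05 ± 0.22 in Kit+ (adjusted p = 5.68e-05) and by −1.71 ± 0.25 in Kit−J (adjusted p = 0.00175). Against Kit−D it was 2.31-fold lower in Kit+D (adjusted p = 0.00276), a call lost in 1 of 31 alternatives. Kit−J against Kit−D, a 2.04-fold difference (adjusted p = 0.0202), lost its call in 7 of 30 alternatives, among them those without Kit−D replicate 3 or without Kit−J replicate 1. The difference between Kit−D and Kit− was −0.69 ± 0.22 (adjusted p = 0.25).

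Gja1, a widely expressed connexin that also occurs in mesenchyme and at sites of disturbed flow in vessels, was high in both Kit− and Kit−D. Fresh Kit− cells gave 8.84, 8.89 and 8.77 and fresh Kit+ cells 6.25, 6.68 and 6.98. The arrays labelled Kit−J gave 6.38 and 7.11 and Kit+J 6.42, 6.56 and 6.85. Kit−D gave 8.74, 9.36 and 9.47 and Kit+D 7.02, 7.23 and 7.43. Kit−D and Kit− overlapped, and every array of both lay above all others by more than 1 log2 unit, while Kit+D lay above Kit+ and Kit+J and overlapped Kit−J. Against Kit−, Gja1 differed by −2.20 ± 0.24 in Kit+ (adjusted p = 5.65e-05) and by −2.09 ± 0.27 in Kit−J (adjusted p = 0.00065). Against Kit−D it differed by −2.44 ± 0.27 in Kit−J (adjusted p = 8.31e-05) and by −1.96 ± 0.24 in Kit+D (adjusted p = 0.00013). Each of these calls held in every alternative run. The 95% interval of Kit−D against Kit− was −0.15 to 0.86.

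Gjc1, a connexin of early endothelium and of vascular smooth muscle, passed in none of the comparisons. It read 8.12, 8.72 and 8.66 in Kit−, 9.22, 9.16 and 8.78 in Kit+, and 8.99 and 8.74 on the arrays labelled Kit−J. Kit−D read 8.76, 9.33 and 9.15, Kit+J 9.62, 9.35 and 9.11, and Kit+D 6.02, 9.18 and 9.57. Outside Kit+D replicate 1 the arrays spanned 8.12 to 9.62, and the fresh Kit− group had the lowest mean of the other 5 groups. The difference from Kit− was 0.55 ± 0.62 for Kit+ (adjusted p = 0.806) and 0.36 ± 0.69 for Kit−J (adjusted p = 0.847), with the low array in the common fit.

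**Figure D2:**
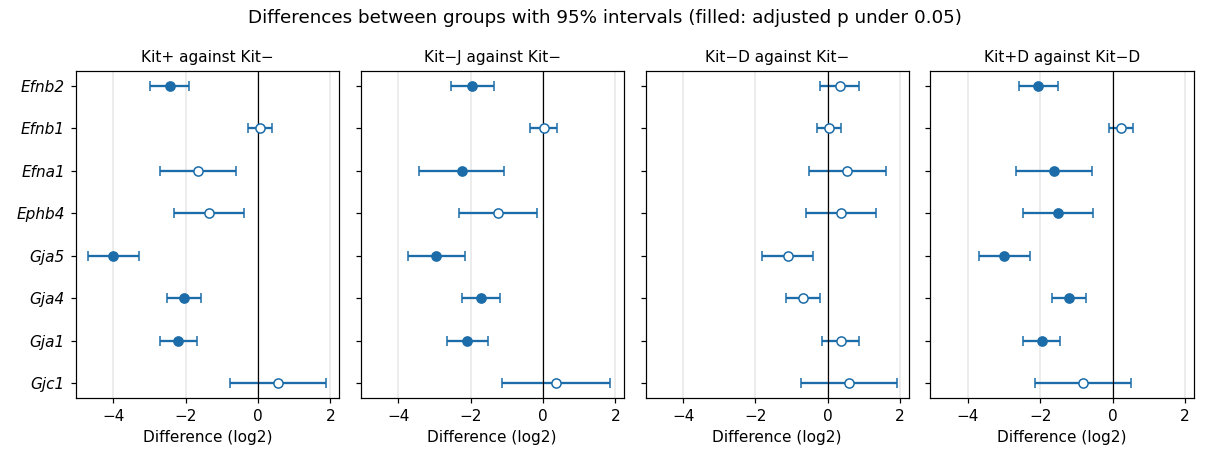
Differences of group means on the log2 scale (points) with 95% intervals (bars) for 4 comparisons, filled where the adjusted p was under 0.05. Gja5 lies at −4.01 for Kit+ and −2.95 for Kit−J, each read against Kit−, and for Kit−D against Kit− no point is filled and Gja5 lies at −1.11.

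Within OP9 cultures, the ligands were compared separately in Kit− and in Kit+ cells. Of the 8 genes, 5 were lower on the arrays labelled Kit−J than in Kit−D, against 6.07% of all genes. Without Kit−J replicate 1, which left 1 array in Kit−J, Efna1, Gja4 and Gja5 were not called, at −2.71, −1.02 and −1.87. Fewer of all genes were called there too. Between Kit+J and Kit+D 0 of 8 differed (limma), against 2.25% of all genes, where 2 of the 8, Efnb2 and Gja1, and 3814 of all genes had an unadjusted p under 0.05. In Kit+J, Efnb2 was 0.80 ± 0.25 and Gja1 0.62 ± 0.24 below Kit+D (adjusted p = 0.111 and 0.18), and the difference in Efnb2 passed without Kit+D replicate 1 (adjusted p = 0.0407). Setting the difference between the ligands in Kit− cells against that in Kit+ cells left 1 of 8 genes, Gja1, at −1.82 ± 0.36 (adjusted p = 0.0213), against 1.36% of all genes lower. Efnb2 was at −1.49 ± 0.38 in the same test and did not pass (adjusted p = 0.0568). The Gja1 call was lost on leaving out Kit−J replicate 1, or replicate 2 or 3 of Kit−D, with values of −1.46, −1.74 and −1.68. In the same test 2 of 8 genes passed without Kit+ replicate 1 or without Kit+J replicate 2, and 4 of 8 without Kit+D replicate 3.

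The same question against the fresh cells, added after the values had been seen, compared the step from Kit− to Kit−J with the step from Kit+ to Kit+J. Efnb2, Gja1, Gja4 and Gja5 passed, 4 of 8 against 0.557% of all genes lower, with differences of −1.87 ± 0.38, −2.06 ± 0.36, −1.92 ± 0.33 and −2.62 ± 0.49. Of 30 alternatives, the call was lost in 17 for Efnb2, 2 for Gja1, 3 for Gja4 and 10 for Gja5. The count was 0 without Kit− replicate 2 or without Kit−J replicate 1, and 2 without any 1 of Kit− replicates 1 and 3, Kit+ replicates 2 and 3 and Kit+J replicate 3. Kit−J and Kit+J cells differed in 0 of 8 genes (limma) against 0.0903% of all genes, and Gja5 was the single gene of the 8 with an unadjusted p under 0.05, at −1.39 ± 0.37 in Kit+J (adjusted p = 0.173), among 2133 of all genes. With 2 arrays in Kit−J, intervals for this comparison were wide, at −1.17 to 0.04 for Efnb2 and −0.71 to 0.43 for Gja1.

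Between the Kit+D and Kit−D cells, 6 of 8 genes were lower in Kit+D, against 6.62% of all genes: Efnb2, Efna1, Ephb4, Gja1, Gja4 and Gja5. The arterial ligand and its venous receptor were both among them. An alternative chosen after seeing the data left out Kit−D replicate 3 together with replicates 1 and 3 of Kit+D, so that Kit+D held 1 array. In that fit Efna1, Ephb4 and Gja4 were not called, at −1.20, −0.94 and −1.13, and fewer of all genes were called too. Without the conflicting replicates 3 of both groups 5 of 8 passed, with Efna1 absent, and the count against Kit−D on the arrays labelled Kit−J was then 4, with Gja4 absent. With the replicate number as a block, which the reported test left out, 5 of 8 passed, and the adjusted p of Efna1 was 0.0648.

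Few other members of these gene families passed the test. Of 17 further ephrins and Eph receptors, 2 were lower in Kit+ than in Kit−, the A-class ephrin Efna5 at −2.05 ± 0.41 (adjusted p = 0.00894) and the receptor Epha7 at −1.23 ± 0.28 (adjusted p = 0.0261), and 0 were higher. The median of the 17 was −0.07, beside 0.06 over all genes, of which 2.67% were called lower. Against the same Kit− arrays, the 17 had a median of 0.01 on those labelled Kit−J, beside 0.09 over all genes. There 1 of 17 was lower, against 1.89% of all genes, namely Epha7 at −1.84 ± 0.32 (adjusted p = 0.00593). It read 6.01, 6.61 and 6.70 in Kit−, 5.10, 5.02 and 5.49 in Kit+, and 4.50 and 4.69 on the arrays labelled Kit−J, without overlap between these groups. In Kit+D against Kit−D 3 of 17 were lower (6.62% of all genes), Efna5, Epha7 and the receptor Epha2. In Kit−J against Kit−D 2 of 17 were lower (6.07% of all genes), Efna5 and Epha2. Of the 17 genes, 9 had a group mean above the median of all values, and the others were dimmer in every group.

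Among 15 further connexins and pannexins, 0 passed between Kit+ and Kit− and 0 between Kit−J and Kit−, with medians of 0.06 and 0.21. Over all genes, 2.67% were lower and 0.562% higher in Kit+, and 1.89% lower and 0.251% higher in Kit−J. Counts of 0 among 15 genes lie near these shares. At an unadjusted p under 0.05 each comparison held 1 of the 15 (limma). Of the 15 genes, 5 had a group mean above the median of all values. Set against Kit−D, 3 of 15 were higher on the arrays labelled Kit−J, against 3.3% of all genes higher: the epidermal connexin Gjb5 by 0.92 ± 0.26, Gjc3, a connexin of myelinating glia, by 0.72 ± 0.19, and Gjd3 by 0.55 ± 0.16. Their adjusted p values were 0.043, 0.0298 and 0.0485 (limma). Gjc3 was dim in every group, with group means of 3.50 to 4.23, below the median of all values. The median of the 15 was 0.27, beside 0.11 over all genes.

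**Figure D3:**
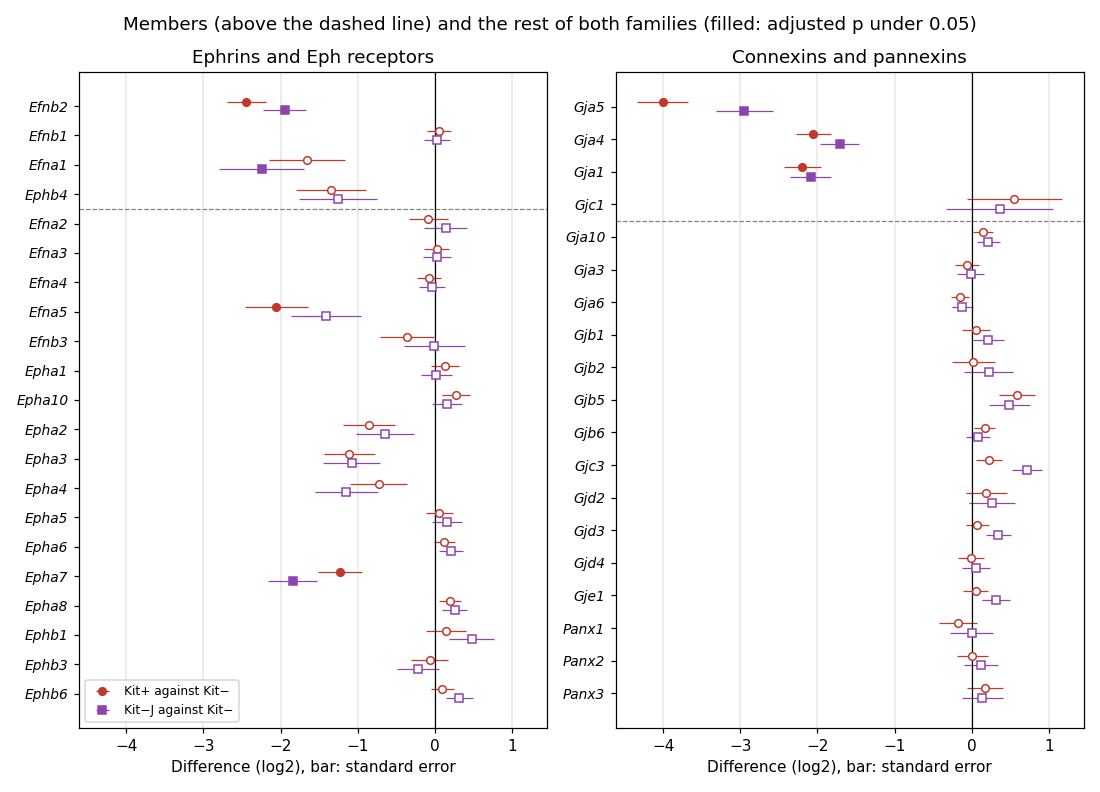
Differences on the log2 scale with standard errors for Kit+ against Kit− (circles) and Kit−J against Kit− (squares), both read against the same 3 Kit− arrays, filled where the adjusted p was under 0.05. Above the dashed line are the 8 genes described here, and below it are 17 further ephrins and Eph receptors and 15 further connexins and pannexins, of which Efna5 and Epha7 are filled.

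Partners of the connexins at the membrane, among them adhesion and cytoskeletal proteins, were lower in part. Of 14 connexin partners 5 were lower in Kit+ than in Kit−, among them the adhesion molecule Cdh2 at −2.69 ± 0.23, the actin-binding Dbn1 at −1.67 ± 0.18, the caveolar protein Cav1 at −3.66 ± 0.53 and the ubiquitin ligase Nedd4 at −0.61 ± 0.13, with a median of −0.46 beside 0.06 over all genes. In Kit−J against Kit− 4 of 14 were lower, Cdh2 at −2.41 ± 0.26, Dbn1 at −1.27 ± 0.20, Nedd4 at −0.77 ± 0.15 and the kinase Prkce at −1.26 ± 0.24. Cdh2 read 7.52, 7.55 and 7.93 in Kit−, 4.85, 5.16 and 4.93 in Kit+ and 5.47 and 5.05 on the arrays labelled Kit−J, with Kit−J and Kit+ overlapping. Of 30 partners of Eph and ephrin signalling, 3 were lower in Kit+, among them the adaptor Grb10 at −2.26 ± 0.34, and 1 in Kit−J, Grb10 at −1.69 ± 0.38. Their medians were −0.09 and −0.29. Over all genes, 2.67% were lower in Kit+ and 1.89% in Kit−J than in Kit−. The difference between the partner lists was not tested.

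Arterial and venous genes were both lower in Kit+ cells. Apart from the 8 genes, 15 of 24 arterial genes were lower in Kit+ than in Kit− (median −1.09), among them the co-receptor Nrp1, at −4.07 ± 0.19, Igfbp3, at −4.09 ± 0.49, the transcription factor Mecom, at −2.59 ± 0.33, and the Notch target Hey2, at −1.99 ± 0.21. Of 11 genes listed as venous 9 were lower (median −2.60), among them Nr2f2, a transcription factor that specifies veins, at −2.60 ± 0.19. The angiopoietin receptor Tek, also listed there but not specific to veins, was at −3.47 ± 0.19. The venous list overlaps the endothelial identity list below, so the counts of the lists are not independent. On the arrays labelled Kit−J, 5 of 24 arterial genes (median −0.76) and 7 of 11 venous genes (median −2.02) were lower than in Kit−, and 10 of 24 and 10 of 11 lower than in Kit−D. Over all genes, 2.67% were lower in Kit+ and 1.89% in Kit−J than in Kit−, and 6.07% in Kit−J than in Kit−D. In Kit−D against Kit− 0 of either list passed (limma), with 6 of 24 and 3 of 11 at an unadjusted p under 0.05 and medians of −0.10 and 0.61. Hey2 read 5.58, 5.91 and 5.01 in Kit−, 4.81, 4.44 and 4.91 in Kit−D and 3.22 to 3.79 on all other arrays, whereas Nr2f2 read 7.82 to 8.12 in Kit−, 7.98 to 8.22 in Kit−D and 5.04 to 6.12 elsewhere.

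Other cell types moved with the groups. Of 20 endothelial identity genes, 18 were lower than in Kit− on the Kit+ arrays (2.67% of all genes) and 14 on those labelled Kit−J (1.89%). Their mean relative to Kit− was −2.54 to −2.40 for Kit+, −1.98 and −1.64 for Kit−J, 0.07 to 0.57 for Kit−D, −2.67 to −2.44 for Kit+J and −2.50 to −1.50 for Kit+D. Markers of primordial germ cells, which express Kit and reside in this region, ran the other way. In Kit+ cells 2 of 20 were higher than in Kit−, against 0.562% of all genes higher, namely Prdm14 and Kit, by which the cells were sorted. On the arrays labelled Kit−J 1 of 20, Prdm14, was higher than in Kit−, against 0.251%, and 9 of 20 were higher than in Kit−D, against 3.3%. Between Kit+D and Kit−D 6 of 20 were higher, against 6.5%. The mean of this list relative to Kit− was 0.95 to 1.30 for Kit+, 0.97 and 0.72 for Kit−J, −1.82 to −0.67 for Kit−D, 1.09 to 1.54 for Kit+J, while the Kit+D arrays gave −1.50, 1.01 and 1.73. The germ cell gene Dppa5a read 10.23 to 11.09 in Kit− and 11.44 to 11.95 in Kit+, but 5.86, 7.37 and 8.91 in Kit−D.

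Of the stromal and mesenchymal markers, 6 of 22 were lower in Kit+ than in Kit− (2.67% of all genes), and 1 of 22, Pdgfra, on the arrays labelled Kit−J (1.89%). Their mean was −1.08 to −1.01 for Kit+, −0.76 and −0.62 for Kit−J, −0.30 to 0.41 for Kit−D, −1.15 to −0.59 for Kit+J and −1.07 to −0.25 for Kit+D. In Kit−D against Kit− 0 of 22 passed (limma), with 8 at an unadjusted p under 0.05 and differences from −1.47 to 2.62. Single markers were far higher on replicate 3 of both OP9-Dll4 groups. Mgp read 10.55 in Kit−D and 9.75 in Kit+D there, and 4.52 to 6.82 on all other arrays. Acta2 read 9.92 and 9.38 there, and 4.27 to 7.69 on all others. Macrophage and myeloid markers had 0 of 18 called between Kit+ and Kit− or between Kit−J and Kit− (limma, 1 and 0 at an unadjusted p under 0.05), and means between −1.95 and 1.72 over all arrays, the highest on Kit+D replicate 1, where Gjc1 and Ephb4 were lowest. Of the erythroid genes, 2 of 10, the embryonic globins Hba-x and Hbb-y, were lower in Kit+, and 2 of 10 on the arrays labelled Kit−J, than in Kit−. Epithelial and neural crest markers had 0 of 10 called in these comparisons (limma, 2 and 1 at an unadjusted p under 0.05). Haematopoietic genes had 2 of 15 higher in Kit+ (0.562% of all genes), the transcription factors Hlf and Myb. In Kit−J 0 of 15 were higher (limma, 2 at an unadjusted p under 0.05), against 0.251% of all genes. The part of these cell types in the differences of the ephrins and connexins was not tested.

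**Figure D4:**
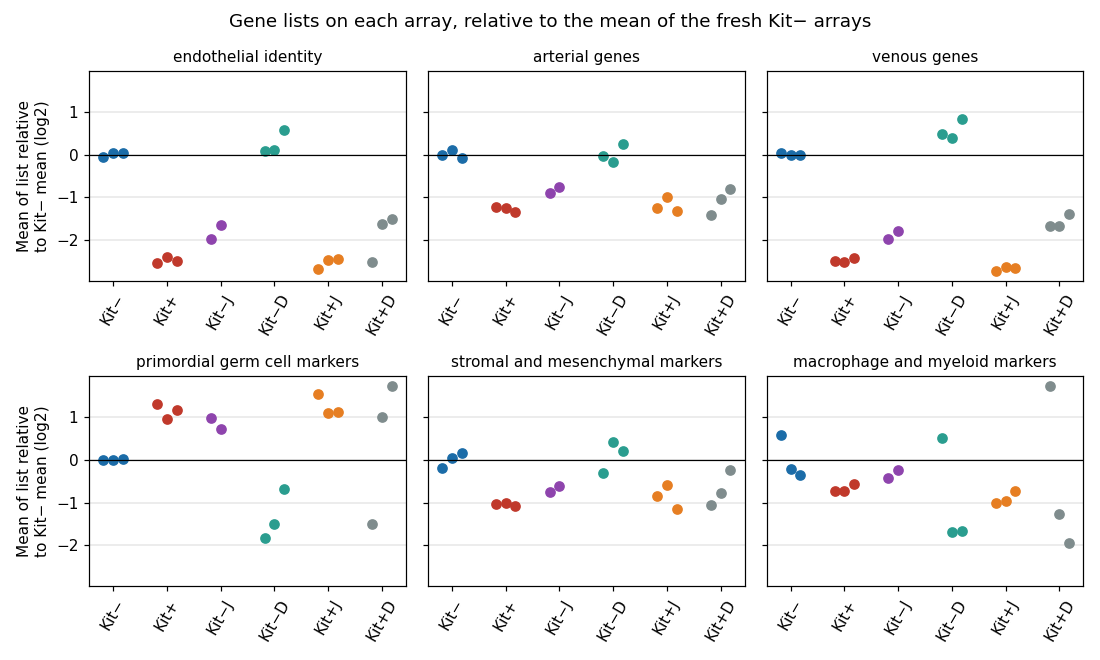
Each point is the mean over a gene list on 1 array, as a log2 difference from the average of the fresh Kit− group. Endothelial, arterial and venous lists are low in all Kit+ groups and on the arrays labelled Kit−J, and the germ cell list runs from −1.82 in Kit−D to 1.73 in Kit+D.

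Across the 17 arrays, Efnb2 was most like Sema6d, a semaphorin (Pearson r = 0.984), the endothelial Ecscr (0.978) and the junction protein Cgnl1 (0.977), from 3512 variable genes. Gja1 was most like Ptprd (0.983), Sptbn1 (0.983) and Phldb2 (0.982). Gja4 was most like Gja5 (0.945), Hey2 (0.943) and Limch1 (0.935), and Gja5 was most like Pcdh17 (0.955), Nr2f2 (0.952) and Mecom (0.952). Once group means were removed, r was 0.67 to 0.74 for the 3 genes paired with Efnb2 and 0.63 to 0.79 for those paired with Gja1. For Gja4 it was then 0.44 with Gja5, 0.30 with Hey2 and 0.67 with Limch1, and for Gja5 0.18 with Pcdh17, 0.52 with Nr2f2 and 0.74 with Mecom. Ephb4 was most like Lamb1 (0.949), Afdn (0.943) and Tjp1 (0.935), and with group means removed r was still 0.90 to 0.94, with Kit+D replicate 1 as the lowest array for Ephb4. Efna1 was most like Mtss2 (0.934), Lix1l (0.921) and Crip2 (0.916), Efnb1 was most like Uchl1 (0.829), Coprs (0.802) and Endog (0.795), and Gjc1 was most like Arhgap42 (0.912), Slc38a4 (0.894) and Fam135a (0.883). Among the 8 genes themselves, the closest pair was Efnb2 with Gja1 (r = 0.959, and 0.28 with group means removed), and Efnb2 with Efnb1 gave −0.17.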

How the data were processed

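The deposited values are log2 signals that the authors obtained by RMA (version not given in the sources used here) from Affymetrix Mouse Gene 1.0 ST arrays, and they were used unchanged. They run from 1.24 to 13.6, and array medians from 5.22 to 5.38. The number of arrays and the amplification of little RNA limit the precision.

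Of 34760 probe sets, 21640 had 1 gene symbol, 1321 several and 11799 none, and 21553 of the first kind matched RefSeq (GRCm38.p6) by Entrez number. For each of 19937 genes the probe set with the highest mean was kept. One linear model with a mean for each of the 6 groups was fitted to all 17 arrays (R 4.3.3, limma 3.58.1 with eBayes), and group differences were called at a Benjamini-Hochberg adjusted p, over all genes, under 0.05. The procedure was tested on simulated data. Tables were read with the data.table package (version 1.17.8). The study's methods name no test for the arrays. The genes named were all members, at most 4 called genes per list in order of adjusted p, the 3 genes most like each member among those with an SD of at least 0.5, and a few markers chosen after their values were seen. Genes, lists and comparisons were chosen with earlier results of these data known. Alternatives changed the probe set rule, features, filter, scaling, prior, weights, arrays and replicate block.

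The reported tests paired no arrays, and the replicate number entered as a block in alternatives only. The fixed block joined equal numbers across fresh, OP9-Jag1 and OP9-Dll4 arrays, a link between these sets that no label states. The random block kept these sets apart. A link by number between Kit−D and Kit+D was judged from the correlation of deviations from group means. It was 0.18 to 0.46 where the number was shared and −0.38 to 0.13 where it differed. For Kit− with Kit+ the correlation was 0.01 to 0.06 with a shared number and −0.07 to 0.04 otherwise. For Kit−J with Kit+J it was −0.26 to −0.11 with a shared number and −0.19 to 0.26 otherwise. Figures were drawn with matplotlib 3.10.9 in Python 3.11.15.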

Additional observations from a re-analysis of the deposited data

Results flagged for a closer look

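Differences between culture conditions were themselves compared between Kit− and Kit+ cells, by a test of the difference. Between the ligands 1 of 8 genes passed: for Gja1, the difference between OP9-Jag1 and OP9-Dll4 cells in the Kit− population against that in the Kit+ population was −1.82 on the log2 scale (adjusted p = 0.0213). For the step from fresh cells to OP9-Jag1, a comparison added after the values had been seen, in which culture, ligand and set of arrays cannot be told apart, the difference between the populations was −1.87 for Efnb2 (adjusted p = 0.0374), −2.06 for Gja1 (adjusted p = 0.0183), −1.92 for Gja4 (adjusted p = 0.0184) and −2.62 for Gja5 (adjusted p = 0.029). Of 30 alternatives, these calls were lost in 17 for Efnb2, 2 for Gja1, 3 for Gja4 and 10 for Gja5. The Kit+ cells began at low readings of all 4 genes, and on both arrays labelled Kit−J a description names a Kit positive source and Kit read above every Kit− array without passing the test (0.58 ± 0.29, SE, adjusted p = 0.399). The part of either in these differences was not tested.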

How the results depend on the processing

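Each comparison was run under 30 alternatives, and Kit+D against Kit−D under 31. No called value reversed its sign. Of 331 counts of called genes, 304 stayed within 1.5 times the reported count and 27 moved, and of 756 single calls 95 were lost. The falls of Efnb2, Gja1, Gja4 and Gja5 in Kit+ and in Kit−J against Kit− kept their call in all of them, while the calls of Efna1 in 3 comparisons, of Ephb4 in Kit+D against Kit−D, of Gja4 in Kit−J and in Kit+D against Kit−D, and of Gja5 in Kit−J against Kit−D did not hold in all. In Kit−D against Kit−, 1 of 8 genes, Gja5, passed with only the compared groups fitted and with array weights, in place of 0. Over all genes 80 and 780 passed there, in place of 34. In Kit+D against Kit+, 1 gene, Efnb2, passed with array weights, where 1075 of all genes passed in place of 283. In Kit+D against Kit−D, fewer of the 8 and fewer of all genes passed when Kit−D replicate 3 was left out together with replicates 1 and 3 of Kit+D. That alternative was chosen after seeing the data and left 1 array in Kit+D. For the difference between the ligands in Kit− against Kit+ cells, reported as 1 gene, the count was 0 with only the compared groups fitted, 0 with housekeeping scaling, 0 with array weights, 0 with those 3 arrays left out, and 2 with dim genes left out. The cause of these changes was not tested.

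Leaving out 1 array at a time, the count ranged from 2 to 6 in Kit−J against Kit−D, from 0 to 1 in Kit+D against Kit+, from 0 to 1 in Kit+J against Kit+D, from 0 to 4 for the difference between the ligands and from 0 to 5 for the OP9-Jag1 step in Kit− against Kit+ cells. The lowest value, 2, in the first came without Kit−J replicate 1. Where Kit−J then held 1 array, its spread was taken to be that of the other groups. Without Kit−D replicate 3 and Kit+D replicate 3, whose label lines conflict, the counts were 4 in Kit+ against Kit−, 5 in Kit−J against Kit−, 4 in Kit−J against Kit−D and 5 in Kit+D against Kit−D.

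With the replicate number as a fixed replicate block, common to fresh and cultured arrays, 5 genes passed in Kit+D against Kit−D, Efna1 being lost. When the OP9-Dll4 arrays were fitted alone with the block 5 passed, Ephb4 being lost. The fixed replicate block left 2 of 8 in the OP9-Jag1 step in place of 4, Gja1 and Gja4, as did a test over all probe sets (2). It also left out Efna1 in Kit−J against Kit− (adjusted p = 0.107) and changed no other call. Housekeeping scaling moved the median of all genes by −0.17 in Kit+ against Kit−, 0.11 in Kit+D against Kit+, −0.16 in Kit+J against Kit−J and 0.15 in the difference between the ligands. Signals near the median of all values, such as Gja4 and Gja5 in Kit+ cells, limit the size of a fold.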
